A study of Mus musculus with 6 samples.

Results

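The mouse fibroblast growth factor (FGF) genes described here are 6 ligands (*Fgf1*, *Fgf2*, *Fgf7*, *Fgf9*, *Fgf10* and *Fgf18*), 3 receptors (*Fgfr1*, *Fgfr2* and *Fgfr3*) and 1 carrier protein (*Fgfbp1*). They were chosen by gene symbol, with earlier results of these data known, and are 10 of the 15280 genes in the deposited RNA-Seq table. Single mammary tumors (T) and the adjacent normal mammary glands (M) came from the same 3 parous females, with gland libraries M11035, M11640 and M9232 and tumor libraries T11035, T11640 and T9232, so n = 3 for each tissue. All 3 mice carried the BK5.ATF3 transgene, in which the bovine keratin 5 promoter drives human ATF3 in basal epithelial cells. The glands are therefore transgenic tissue from tumor-bearing animals and not wild-type controls. In this line tumors appeared at an age of 6 to 12 months, and mice were killed when a tumor was 1.5 cm long. The question the comparison addresses is which FGF genes differ between a tumor and the gland it lies beside.

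Expression is given as CPM, a gene's fragments scaled to edgeR's effective library size. The libraries held between 4750989 and 7806908 fragments on genes, and 3 fragments, the floor used here, corresponded to 0.393 to 0.610 CPM. The tissues were bulk samples, in which fewer cells of a type and less RNA per cell cannot be told apart. The glands differed widely in skeletal muscle transcripts. Over 10 muscle markers the summed CPM was 16367 in gland M11035, 5677 in gland M11640 and 378 in gland M9232. The tumors had 50.7 to 108 CPM for the same sum. Calls of the FGF genes that change without gland M11035, which had the most, are given in both forms.

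FGFs are secreted proteins that bind heparan sulfate in the matrix and signal through FGF receptors, which are receptor tyrosine kinases linked to the Ras-MAPK and phosphoinositide kinase cascades. In the mammary gland, *Fgf10* and *Fgf7* are known as stromal ligands. Their receptor is the epithelial splice form of *Fgfr2*, which is required for the embryonic mammary bud and for branching of the ducts. *Fgfr1* is the receptor most used by mesenchyme. *Fgfbp1* encodes a secreted carrier that releases FGFs from heparan sulfate and is known from squamous epithelia and carcinomas.

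Of the 10 genes, 5 were significantly up-regulated in the tumors (*Fgfbp1*, *Fgfr3*, *Fgf7*, *Fgfr2* and *Fgfr1*) and 3 were significantly down-regulated (*Fgf10*, *Fgf2* and *Fgf1*). *Fgf9* and *Fgf18* did not pass the test. A differentially expressed gene (DEG) had a log2 fold change of 1 or more in either direction and an adjusted p of at most 0.05 in limma on log2(CPM + 0.5), with Benjamini-Hochberg adjustment over all 15280 genes. By the same thresholds, 14.5% of all genes were up-regulated DEGs and 13.7% were down-regulated DEGs. The 3 tumors all lay above the 3 glands in 5 of the 10 genes and all below them in 3, where 27.6% and 26.3% of all genes did so. The median log2 fold change was 0.66 over the 10 genes and -0.00276 over all genes. Fold changes are on the log2(CPM + 0.5) scale, which understates the change of genes with low counts.

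**Figure D1:**
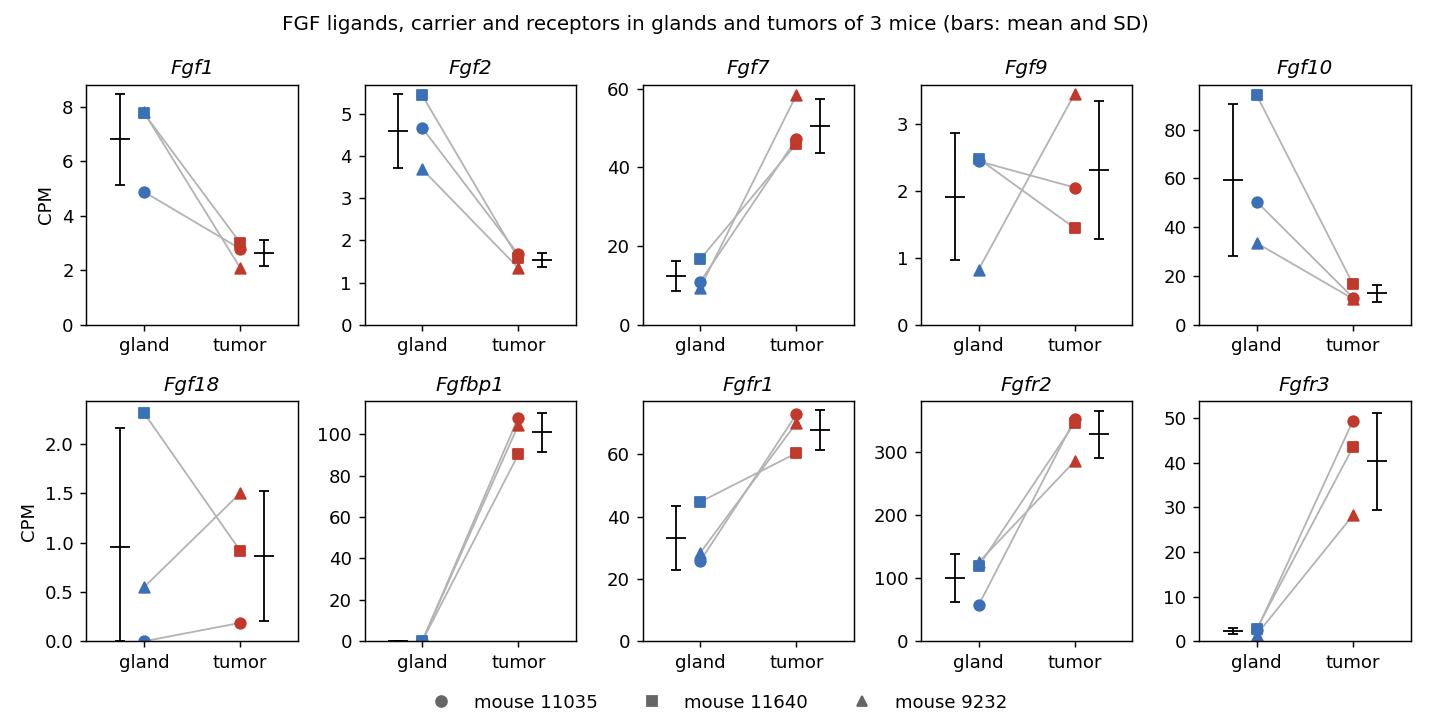
CPM (vertical axes, each panel with its own scale) of the 10 FGF genes in the 3 glands (blue) and 3 tumors (red), with lines joining the tissues of a mouse and black bars for the mean and SD of 3 libraries, the lower bar of *Fgf18* in glands ending at the axis. *Fgf7*, *Fgfbp1*, *Fgfr1*, *Fgfr2* and *Fgfr3* were higher in each of the 3 tumors, *Fgf1*, *Fgf2* and *Fgf10* were lower, and the lines of *Fgf9* and *Fgf18* cross.

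*Fgf10* (chromosome 13, 119458598-119580922, plus strand, mm9), the stromal ligand of the epithelial *Fgfr2* form, had the highest level of the ligands in the glands. It measured 50.4 CPM in gland M11035, 94.1 in gland M11640 and 33.5 in gland M9232. The tumors of the same mice had 11.2, 16.8 and 10.6 CPM. Every tumor lay below every gland, and the glands varied more among themselves than the tumors did. The mean fell from 59.4 ± 31.3 to 12.9 ± 3.40 CPM (SD, n = 3), a log2 fold change of -2.06 ± 0.36 (SE) and a 4.18-fold lower level (limma, adjusted p = 0.0021). The change within each mouse was -2.13 from M11035 to T11035, -2.45 from M11640 to T11640 and -1.61 from M9232 to T9232 on the log2 scale.

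*Fgf7* (chromosome 2, 125860394-125916921, plus strand), also called keratinocyte growth factor, moved the other way. The glands M11035, M11640 and M9232 had 10.98, 16.7 and 9.44 CPM and the tumors of these mice 47.3, 46.0 and 58.4 CPM, and the same order of mice is kept below. The lowest tumor was above the highest gland. The mean rose from 12.4 ± 3.82 to 50.6 ± 6.85 CPM (SD, n = 3), with a log2 fold change of 2.02 ± 0.23 (SE) and a fold change of 4.06 (limma, adjusted p = 2.38e-04). *Fgf7* was higher in the tumor of 3 of 3 mice, by 2.06, 1.44 and 2.57 on the log2 scale.

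The ratio of these ligands turned over between the tissues. In glands, the log2 ratio of *Fgf10* to *Fgf7* CPM was 2.20, 2.50 and 1.83, and in tumors it was -2.08, -1.46 and -2.46. *Fgf10* was thus 4.51 times *Fgf7* in the glands by the mean log2 ratio, and *Fgf7* was 3.995 times *Fgf10* in the tumors. The difference between tumor and gland was -4.17, and it was -4.28, -3.95 and -4.29 within the 3 mice. The exact permutation test gave p = 0.1 (two-sided, 3 against 3), the smallest value this design allows, and 0.2 after Benjamini-Hochberg adjustment over the 2 ratios tested. A ratio within a library does not depend on how the library was scaled.

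*Fgf1*, acidic FGF, which binds every FGF receptor, and *Fgf2*, basic FGF, were low in both tissues and lower in the tumors. *Fgf1* (chromosome 18) had 4.88, 7.76 and 7.80 CPM in the glands and 2.79, 3.01 and 2.10 CPM in the tumors. These values stood on 24 to 57 fragments in a gland and 14 to 23 in a tumor, and the groups did not overlap. The log2 fold change of *Fgf1* was -1.21 ± 0.28 (SE, n = 3; limma, adjusted p = 0.00926), which is a 2.31-fold lower level. *Fgf2* (chromosome 3, 37211441-37304299, plus strand) had 4.68, 5.45 and 3.69 CPM in the glands and 1.67, 1.57 and 1.35 CPM in the tumors. Its values stood on 23 to 33 fragments in a gland and 9 to 12 in a tumor. All 3 tumors fell below the lowest gland. The log2 fold change of *Fgf2* was -1.32 ± 0.28 (SE, n = 3; limma, adjusted p = 0.00536), a 2.49-fold lower level. Exons of *Fgf2* overlap those of *Nudt6* on the other strand over 242 bp, those of *Cetn4* on the other strand over 55 bp and those of *Bbs12* over 32 bp. The library kit does not mark strand, so fragments from the overlaps cannot be assigned with certainty and the level of *Fgf2* is uncertain to that extent.

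*Fgf9* and *Fgf18*, ligands that signal mainly through the mesenchymal receptor forms, were near the floor. *Fgf9* (chromosome 14, 58689384-58731174, plus strand) had 2.44, 2.48 and 0.821 CPM in the glands and 2.05, 1.44 and 3.45 CPM in the tumors, so the tissues overlapped. Its log2 fold change was 0.25, with a 95% interval of -0.73 to 1.23 (limma, adjusted p = 0.671), and it was higher in the tumor of 1 of 3 mice. *Fgf18* (chromosome 11, 33017430-33047400, minus strand) had 0, 14 and 4 fragments in the glands and 1, 7 and 10 in the tumors, or 0, 2.31 and 0.547 CPM and 0.186, 0.917 and 1.50 CPM. The interval of its log2 fold change ran from -1.40 to 1.66 around 0.13 (limma, adjusted p = 0.894). A difference of either gene was not detectable at this depth, and changes in either direction up to about the limits of these intervals are not excluded.

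*Fgfbp1* (chromosome 5, 44370104-44373001, minus strand) showed the widest difference of the 10 genes. It had 0 fragments in gland M11035, 0 in gland M11640 and 1 in gland M9232. The tumors had 581, 689 and 697 fragments, which is 108, 90.3 and 104 CPM. All 3 glands were under the floor, and the tumors lay close together at 101 ± 9.41 CPM (SD, n = 3). Against the floor of 3 fragments per gland, the mean tumor level was at least 199.8-fold higher (limma, adjusted p = 4.53e-07). The fitted log2 fold change of 7.54 depends on the 0.5 CPM added and is no bound.

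Among the receptors, *Fgfr2* was the most abundant in both tissues. *Fgfr2* (chromosome 7, 137306026-137410322, minus strand) had 56.9, 118 and 125 CPM in the glands and 351, 345 and 285 CPM in the tumors. The lowest tumor was above the highest gland, and gland M11035 was the lowest of the 6 libraries. The mean rose from 99.98 ± 37.4 to 327 ± 36.8 CPM (SD, n = 3), a log2 fold change of 1.78 ± 0.28 (SE) and a fold change of 3.44 (limma, adjusted p = 0.00134). Within mice, the log2 change was 2.61, 1.54 and 1.19, and the largest was that of gland M11035, which had the most muscle transcripts. Without that gland the log2 fold change was 1.42 (limma, adjusted p = 3.62e-04).

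*Fgfr1* (chromosome 8, 26624126-26686186, plus strand) rose least of the 5 up-regulated genes. The glands had 25.8, 44.8 and 28.5 CPM and the tumors 72.9, 60.4 and 70.1 CPM. The groups did not overlap, but tumor T11640 exceeded its own gland by 0.43 on the log2 scale, against 1.48 for T11035 and 1.29 for T9232. The log2 fold change was 1.07 ± 0.22 (SE, n = 3; limma, adjusted p = 0.00526), close to the threshold of 1. Without gland M11035 it was 0.91 (adjusted p = 0.0150) and without gland M9232 it was 0.98 (adjusted p = 0.0154), and with either left out *Fgfr1* was no longer called by limma, which left 4 of the 10 genes up-regulated. Scaling the libraries to the upper quartile also took *Fgfr1* below the threshold, at 0.9996 (adjusted p = 0.00697).

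*Fgfr3* (chromosome 5, 34064373-34079716, plus strand), a receptor expressed in stratified epithelia and cartilage, was near the floor in the glands. It measured 2.44, 2.81 and 1.50 CPM there, from 11 to 17 fragments, and 49.3, 43.4 and 28.2 CPM in the tumors. No gland came within the range of the tumors. The mean rose from 2.25 ± 0.672 to 40.3 ± 10.9 CPM (SD, n = 3), and the log2 fold change was 3.88 ± 0.29 (SE; limma, adjusted p = 2.31e-05), a fold change of 14.8. The change was similar in size across the mice, at 4.08, 3.73 and 3.84 on the log2 scale.

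The log2 ratio of *Fgfr2* to *Fgfr1* was 1.14, 1.40 and 2.13 in the glands and 2.27, 2.51 and 2.02 in the tumors. The tissues overlapped in this ratio, and gland M9232 was above its own tumor. The difference of 0.71 gave p = 0.2 in the exact permutation test (two-sided, 3 against 3), also 0.2 after adjustment over both ratios. The deposited values are sums over a gene, so the epithelial and mesenchymal splice forms of the receptors are not separated in them.

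**Figure D2:**
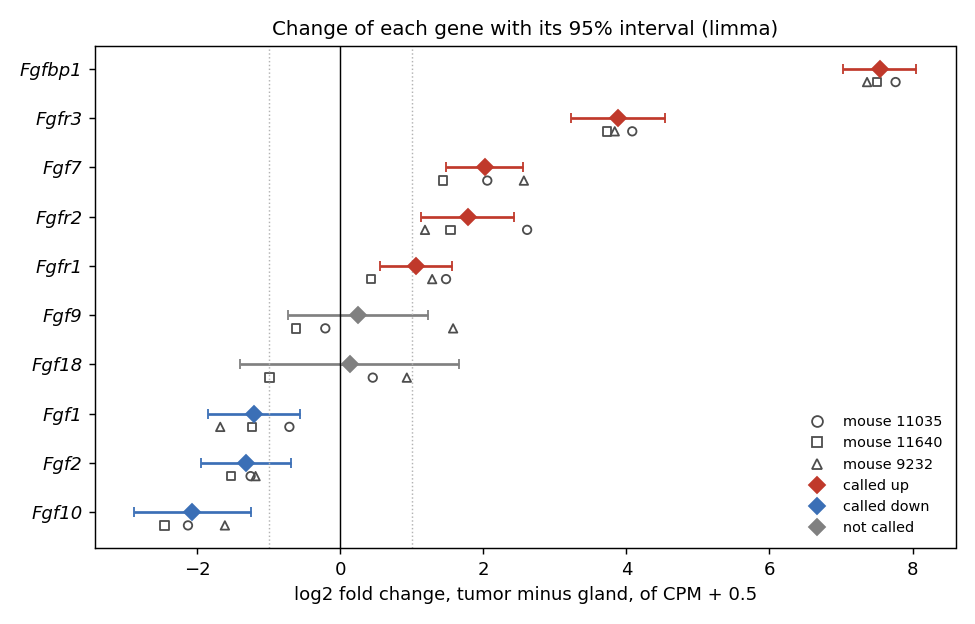
Log2 fold change of CPM + 0.5, tumor minus gland (horizontal axis), for each FGF gene, with diamonds and bars for limma's estimate and 95% interval and open symbols for the 3 mice; dotted lines mark the threshold of 1. The intervals of *Fgf9* and *Fgf18* span 0, the interval of *Fgfr1* begins at 0.56, and the estimate of *Fgfbp1* depends on the 0.5 CPM added.

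Levels of different genes were compared as CPM per kilobase of merged exon. In the glands, *Fgfr2* (13.5 CPM per kb) and *Fgf10* (12.9) were highest and overlapped each other. *Fgfr1* (4.10), *Fgf7* (3.81) and *Fgf2* (2.56) came next, each overlapping the next of them, and were followed by *Fgf1* (1.47), *Fgf18* (0.803), *Fgf9* (0.448), *Fgfr3* (0.327) and *Fgfbp1* (0.0395). In this order 6 of 9 neighbouring pairs overlapped in their 3 values. In the tumors the order began with *Fgfbp1* at 87.5 CPM per kb, then *Fgfr2* at 44.1, *Fgf7* at 15.6, *Fgfr1* at 8.41, *Fgfr3* at 5.86 and *Fgf10* at 2.79. None of these overlapped its neighbour, whereas *Fgf2* (0.850), *Fgf18* (0.731), *Fgf1* (0.567) and *Fgf9* (0.542) each overlapped the next, although all 3 values of *Fgf2* lay above those of *Fgf1*. Dividing by the longest transcript in place of merged exons brought *Fgfbp1* and *Fgfr2* of the tumors into overlap. The same division brought *Fgf10* and *Fgfr1* of the glands into overlap and put *Fgf9* above *Fgf1* in the tumors.

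Shares of the summed level describe the make-up of the ligands and of the receptors. *Fgf10* made up 57.1% ± 6.40 of the summed ligand CPM per kb in the glands and 13.4% ± 4.07 in the tumors (SD, n = 3). The share of *Fgf7* was 17.9% ± 2.16 in the glands and 73.9% ± 3.97 in the tumors. *Fgfr2* held 74.3% ± 6.85 of the summed receptor CPM per kb in the glands and 75.5% ± 1.41 in the tumors. *Fgfr3* went from 2.03% ± 1.06 to 9.91% ± 1.70 and *Fgfr1* from 23.7% ± 5.86 to 14.6% ± 2.31. The summed CPM of the 3 receptors was 135 ± 43.7 in the glands and 435 ± 46.8 in the tumors, whereas that of the 6 ligands was 86.0 ± 38.1 and 70.8 ± 6.24. These shares follow from the gene values above and were not tested separately.

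**Figure D3:**
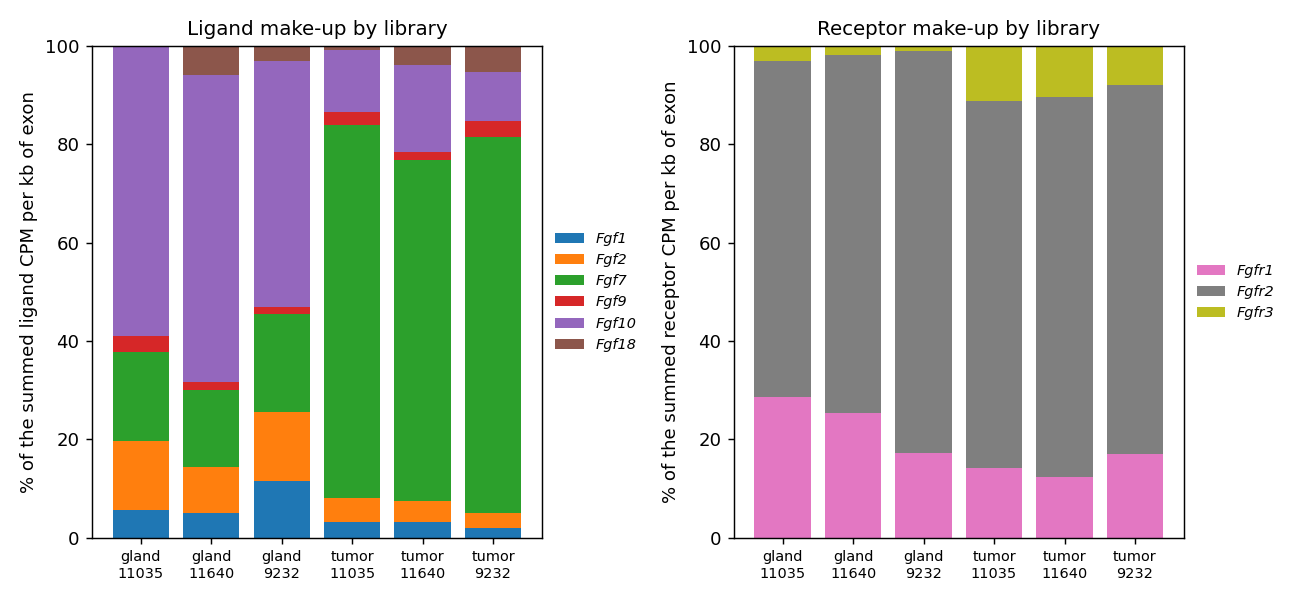
Share of each ligand in the summed ligand CPM per kb of exon (left, vertical axis in percent) and of each receptor in the summed receptor CPM per kb (right) in the 6 libraries. *Fgf10* is the largest part of every gland and *Fgf7* of every tumor, and *Fgfr2* is the largest receptor part in all 6 libraries.

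Other genes of the pathway were examined by role, from 7 lists with 95 genes, of which the table holds 76. Of these, 19 were up-regulated and 4 were down-regulated DEGs by limma, beside 14.5% and 13.7% of all genes, and their median log2 fold change was 0.47. The same shares of all genes stand beside the count of each pathway and marker list below. The table holds 3 of the 16 other FGF family genes listed, not all of which encode ligands of the receptors. *Fgf13*, which stays inside the cell and does not act through the receptors, had 9.35, 10.6 and 6.57 CPM in the glands and 1.86, 1.83 and 1.20 CPM in the tumors. It was the one called, with a log2 fold change of -2.12 (limma, adjusted p = 5.57e-04). *Fgf20*, with the highest log2 fold change of the 3, had 1.22, 0.826 and 0 CPM in the glands and 2.05, 1.83 and 1.95 CPM in the tumors and was not called (log2 fold change 1.22, limma adjusted p = 0.0719), but it was called without gland M11035 (1.58, limma adjusted p = 0.0363).

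Of 6 other receptors, co-receptors and carriers in the table, 2 were up-regulated and 2 were down-regulated. *Klb*, the co-receptor of endocrine FGFs in fat and liver, had 18.5, 23.6 and 9.16 CPM in the glands and 0.744, 0 and 0.2997 CPM in the tumors. Its log2 fold change was -4.37 (limma, adjusted p = 1.21e-04). Tumors T11640 and T9232 were under the floor for *Klb*, and its log2 fold change ran from -5.76 to -3.69 over the alternatives. *Fgfrl1*, an FGF receptor without a tyrosine kinase domain, fell from 17.1 ± 4.63 to 3.15 ± 0.526 CPM (SD, n = 3; limma, adjusted p = 2.43e-04). *Flrt1*, a transmembrane protein that binds FGF receptors, rose from 1.38 ± 0.481 to 10.3 ± 0.329 CPM (limma, adjusted p = 1.47e-04), and *Fgfbp3*, another carrier, rose from 1.50 ± 0.483 to 5.58 ± 2.09 CPM (limma, adjusted p = 0.00803).

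Heparan sulfate holds FGFs in the matrix and is part of the receptor complex. Of 11 heparan sulfate proteoglycan genes, 4 were up-regulated. *Sdc1*, the syndecan of epithelial cells, had 14.2, 10.9 and 21.7 CPM in the glands and 173, 189 and 227 CPM in the tumors (log2 fold change 3.66, limma adjusted p = 1.48e-05). *Gpc1*, a glypican, rose by 2.70 on the log2 scale, *Agrn* (agrin) by 1.90 and *Hspg2* (perlecan) by 1.01 (limma, adjusted p = 5.19e-05, 2.13e-04 and 0.0110). The call of *Hspg2* held in 9 of 16 alternative analyses, and was lost without gland M11035, without gland M9232 and without tumor T9232, with edgeR and DESeq2, and with either other scaling. *Gpc6* had the lowest log2 fold change of the list, -0.63, and did not reach the fold threshold.

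Of 18 genes for enzymes that build or cut heparan sulfate, 3 were up-regulated, a share close to the 14.5% of all genes. *Hs6st2*, which adds 6-O-sulfates, rose from 2.81 ± 0.845 to 47.8 ± 22.5 CPM (SD, n = 3; log2 fold change 3.81, limma adjusted p = 6.07e-05). *Sulf1*, which removes 6-O-sulfates outside the cell, rose by 1.52 (limma, adjusted p = 1.10e-04) and *Ext1*, a chain polymerase, by 1.09 (limma, adjusted p = 0.0021). Without gland M11035 the change of *Ext1* was 0.90 and it was not called, while *Ndst3*, named after its values were seen, was called, which left the count at 3. *Hpse* (heparanase) had the lowest log2 fold change of the list, -0.62, and overlapped between the tissues.

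Adaptors and Ras-MAPK relays carry the receptor signal to the nucleus. Of 21 such genes, *Pik3r1*, a regulatory subunit of phosphoinositide kinase, was the one called, and it fell from 765 ± 59.0 to 191 ± 41.8 CPM (SD, n = 3; log2 fold change -2.02, limma adjusted p = 5.20e-05). In this list 0 of 21 genes were up-regulated and 1 was down-regulated, beside 14.5% and 13.7% of all genes. The median log2 fold change of the list was 0.17.

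Feedback inhibitors and ETS factors are transcribed in response to receptor signaling, FGF receptors among others. Of 13 such genes, 7 were up-regulated and all 13 had a positive log2 fold change, with a median of 1.02. *Etv4*, an ETS transcription factor, had 0.407, 0.165 and 0.547 CPM in the glands and 10.4, 7.86 and 10.04 CPM in the tumors (log2 fold change 3.52, limma adjusted p = 4.67e-05). In 2 of the glands *Etv4* was at or under the floor, and its log2 fold change ran from 2.93 to 4.64 over the alternatives. *Dusp4*, with the lowest log2 fold change, overlapped between the tissues at 0.12 (adjusted p = 0.792). The other 6 called genes, named after their values were seen, were *Spry1*, *Dusp5*, *Spred3*, *Dusp6*, *Spred1* and *Spry2*, with log2 fold changes from 1.02 to 1.54. *Spry2* was called in 7 of 16 alternative analyses. Without gland M11035, 5 of the 13 were up-regulated, and *Spred1* and *Spry2* were those lost.

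The receptor transcripts are spliced into epithelial and mesenchymal forms by RNA-binding proteins, of which 4 were listed and 3 were up-regulated. *Esrp1* and *Esrp2*, the epithelial splicing regulators that favour the epithelial form of *Fgfr2*, rose from 47.4 ± 21.6 to 203 ± 23.3 CPM and from 3.82 ± 0.884 to 22.8 ± 2.51 CPM (SD, n = 3). Their log2 fold changes were 2.18 and 2.44 (limma, adjusted p = 6.62e-04 and 7.56e-05). *Rbfox2*, another regulator of this exon, rose by 1.21 (limma, adjusted p = 6.61e-04). *Ptbp1*, with the lowest log2 fold change, had 47.0, 40.5 and 48.8 CPM in the glands and 89.1, 93.8 and 88.0 CPM in the tumors and lay just below the fold threshold at 0.99. It passed the threshold without gland M11035, without gland M9232 and without tumor T9232, where 4 of the 4 genes were up-regulated.

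**Figure D4:**
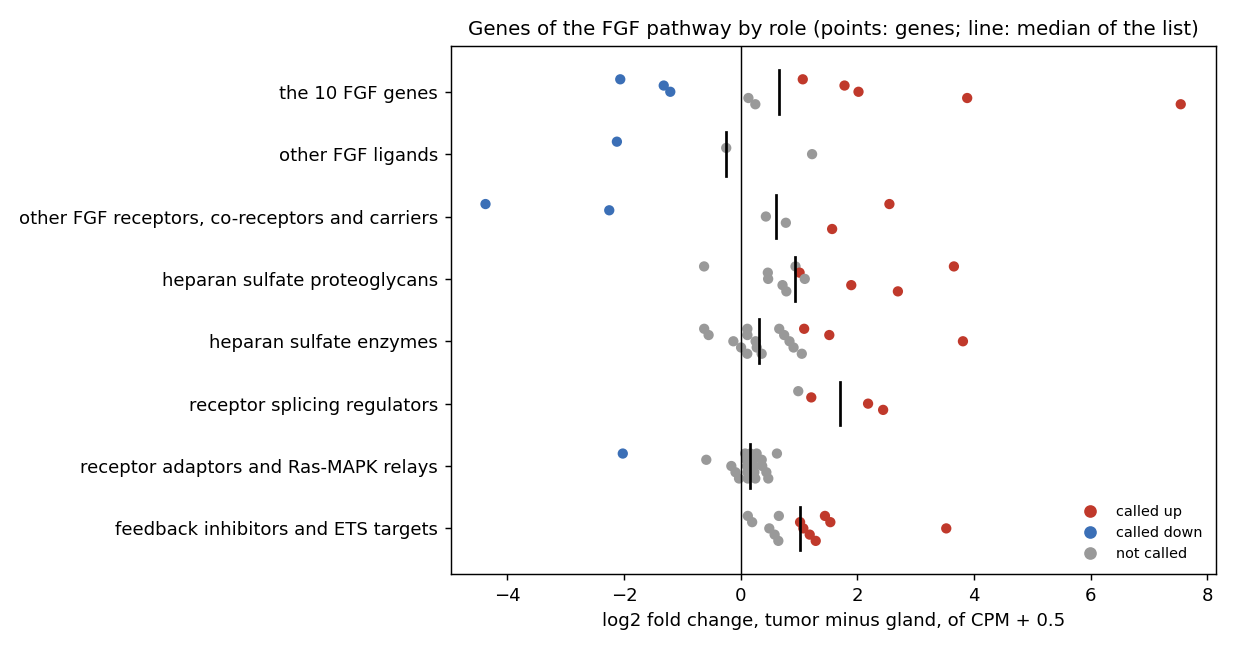
Log2 fold change of CPM + 0.5, tumor minus gland (horizontal axis), of each gene of the 8 groups, with a point per gene colored by its call and a black line at the median of the group. The median is 1.02 for the feedback inhibitors and ETS targets and 0.17 for the adaptors and relays, and the 10 FGF genes spread to both sides.

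Markers of cell types that make or receive FGFs also differed between the tissues. Adipocyte markers (*Adipoq*, *Plin1*, *Fabp4* and others) summed to 3541 to 6856 CPM in the glands and 169 to 227 in the tumors, and 10 of 10 fell. In the glands this sum had the order of *Fgf10*, with gland M11640 highest and gland M9232 lowest in both. *Fgf2*, *Fgf7* and the sum of the endothelial markers given below had this order too, although *Fgf7* was higher in the tumors. Fibroblast markers (*Col1a1*, *Col1a2*, *Col3a1* and others) summed to 1084 to 4482 CPM in the glands and 8583 to 9252 in the tumors, with 4 of 10 up-regulated and 1 (*Dpt*) down-regulated. Without gland M11035 or without gland M11640, 5 of 10 were up-regulated. The 4 called up were *Col1a1*, *Col1a2* and *Col3a1*, with log2 fold changes of 4.63, 3.75 and 2.60, and *Pdgfrb*, with 1.56. These collagen genes had the highest tumor means of the list, at 1636, 2912 and 3037 CPM. *Dcn*, *Fap*, *Pdgfra* and *Lum*, at 0.09, 0.03, -0.23 and 1.19, overlapped between the tissues and were not called. *Dpt* was called in 11 of 16 alternatives and lost without the mean-variance trend and without gland M11640, gland M9232, tumor T11035 or tumor T11640. The fibroblast sum and *Fgfr1* were both lowest in gland M11035 and highest in gland M11640, and so was the basal epithelial sum given below. The part of adipocyte and fibroblast content in the changes of *Fgf10*, *Fgf7*, *Fgf1*, *Klb* and *Fgfr1* was not tested.

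Basal epithelial markers (*Krt5*, *Krt14*, *Trp63* and others) rose in 9 of 10 cases, from a sum of 960 to 1244 CPM in the glands to 3253 to 3858 in the tumors. Squamous markers (*Krt1*, *Krt10*, *Krt6a* and others) rose in 9 of 9 in the table, from 13.6 to 15.5 CPM to 2048 to 3538 CPM. *Lor*, *Ivl* and *Sprr1b*, with 3 fragments or fewer in every gland, are among these. Luminal markers (*Epcam*, *Krt8*, *Krt18* and others) overlapped in their sum, at 568 to 1110 CPM in the glands and 802 to 954 CPM in the tumors, with 4 of 10 up-regulated and 5 down-regulated. The counts were 3 and 5 without gland M11035, 3 and 4 without tumor T9232, and 4 and 4 without gland M11640, gland M9232 or tumor T11640. With all libraries, *Krt8*, *Krt18*, *Krt19* and *Cdh1* rose, with log2 fold changes from 1.19 to 2.33, and *Epcam* was not called. *Elf5*, *Kit*, *Prlr*, *Esr1* and *Foxa1* fell, with log2 fold changes from -3.11 to -1.28. *Fgfr2* and the luminal sum had the same order over the 3 glands, and so had the squamous and macrophage sums. Whether the rise of *Fgfr2*, *Fgfr3*, *Fgfbp1*, *Sdc1* and the *Esrp* genes goes beyond that of the basal and squamous markers was not tested.

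Other cell types were measured in the same way. T cell markers fell in 9 of 9 genes (193 to 490 CPM in the glands, 30.1 to 49.3 in the tumors) and B cell markers in 9 of 10 (347 to 875 against 36.7 to 56.3). *Ly6d* was the B cell list's exception and rose. Endothelial markers fell in 3 of 10 (386 to 523 against 233 to 316), or in 2 by edgeR and by DESeq2 and 1 without gland M11640 or without tumor T11035, and 1 of 9 macrophage markers rose (1123 to 3968 against 1374 to 2645, overlapping), or 2 without gland M9232 or without tumor T11035. The count of skeletal muscle markers that fell depended on the analysis. It was 3 of 10 by limma, 4 with a replicate block, 1 without the mean-variance trend, 9 by edgeR, 6 by edgeR with a block and 10 by DESeq2. It was 10 without gland M9232 and 1 without any other single library. All 3 glands, labelled normal, held adipocyte, luminal and basal transcripts, and all 3 tumors held luminal, basal and squamous transcripts.

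**Figure D5:**
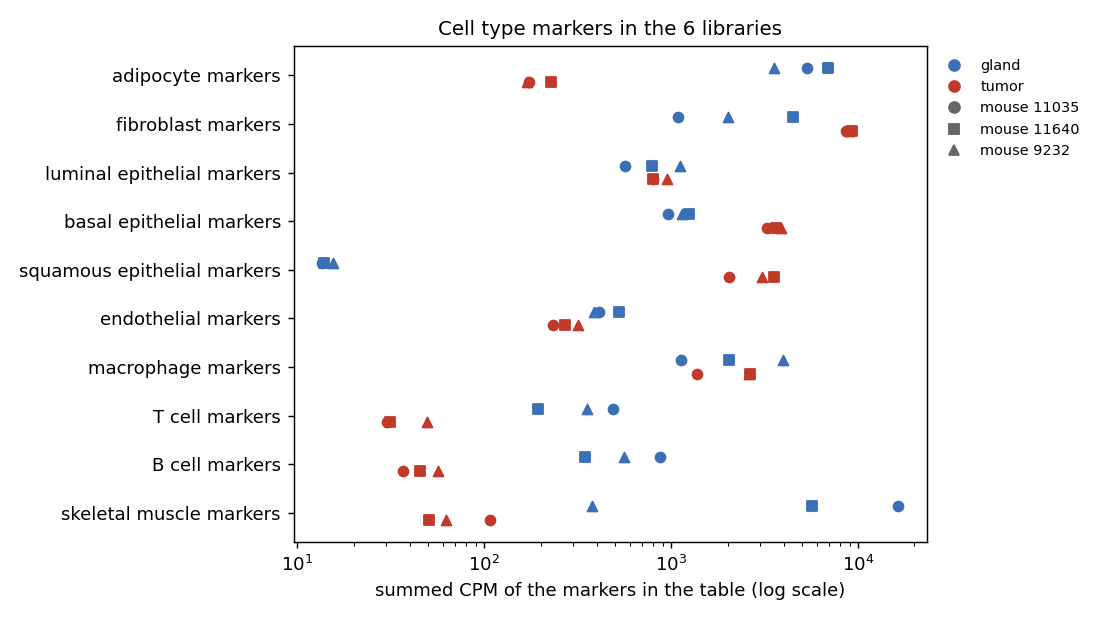
Summed CPM of the markers of 10 cell types (horizontal axis, log scale) in the 3 glands (blue) and 3 tumors (red), with a symbol for each mouse. The adipocyte, T cell, B cell, endothelial and skeletal muscle sums are lower in every tumor and the fibroblast, basal and squamous sums higher. Skeletal muscle runs from 378 to 16367 CPM among the glands.

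*Fgf10* and *Fgfr2* had the highest mean CPM over the 6 libraries of the ligands and of the receptors, although per kb the mean over these libraries was higher for *Fgf7* than for *Fgf10*. Genes with the most similar pattern to this pair were found by the Euclidean distance between centred log2(CPM + 0.5) values over 6 libraries, among the 14712 genes whose mean reached 1 CPM. The nearest to *Fgf10* were *Pank3* (distance 0.368), *Gm13152* (0.402) and *Dhrs7* (0.460), with log2 fold changes of -1.94, -1.89 and -2.19. The nearest to *Fgfr2* were *Fibin* (0.212), *Ahr* (0.223) and *Specc1* (0.342), with log2 fold changes of 1.93, 1.86 and 1.997. These distances describe 6 libraries and carry no test.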

How the data were processed

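RNA-Seq was performed by the authors on total RNA of 3 tumors and 3 adjacent glands, with libraries from the Ovation RNA-Seq System V2. According to the methods and the submitters' processing notes, the authors mapped read pairs to mm9 with TopHat2 (2.0.3), counted fragments per RefSeq gene with HTSeq (0.5.3p9) and removed genes with fewer than 10 fragments over all samples. The authors deposited a normalized signal, CPM on edgeR's effective library size (edgeR 3.6.1). All values were whole multiples of 1 fragment (100% within 0.01 fragment), so fragments were recovered by division. The strand setting of the counting is not given in the sources used here, and 0 sample columns were left out.

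Libraries were grouped by the labels' tissue. Genes were tested with limma 3.58.1 (R 4.3.3) with a mean-variance trend and no mouse term, two-sided, because the values are CPM. The unit was recorded as a signal since columns sum to 952151 to 1041166 CPM. Alternatives were other pseudocounts (0.1 and 1), a filter at a mean of 1 CPM, no trend, a replicate block, 2 other scalings, edgeR 4.0.16 and DESeq2 1.42.0 on recovered fragments, and each library left out. The script was tested on simulated data. The mouse numbers pair the libraries, since a tumor and a gland of the same number were taken from 1 animal. Their deviations from the group means correlated at 0.107, 0.151 and 0.0168 over 14712 genes for M11035 and T11035, M11640 and T11640, and M9232 and T9232. Glands and tumors of different mice correlated at -0.168 to 0.0405, a range that holds the value of M9232 and T9232.

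The FGF genes, the pathway lists and the marker lists were chosen with earlier results of these data known. Named genes were the 10 FGF genes, the genes with the highest and lowest log2 fold change of each pathway list among those averaging 1 CPM or more, the called genes of lists with 5 or fewer called, and the first genes of each marker list. Further genes of the fibroblast and luminal lists were named after their values were seen. A gene that this rule names in the list of adaptors and relays is not reported here. Positions and exon lengths came from GENCODE vM1 (mm9). With BLAST, 0 of 10 FGF genes had another gene's transcript at least 95% identical over at least 500 bp. The libraries of one tissue are from separate mice, and no pair of one tissue agreed within sampling noise (chi-square per degree of freedom of at least 13.0).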

Additional observations from a re-analysis of the deposited data

How the results depend on the processing

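*Fgf1*, *Fgf2*, *Fgf7*, *Fgf10*, *Fgfr2*, *Fgfr3* and *Fgfbp1* were called in the same direction in 16 of 16 alternatives, and *Fgfr1* in 13 of 16. The log2 fold change ran from -2.41 to -1.67 for *Fgf10*, 1.85 to 2.25 for *Fgf7*, 1.42 to 1.98 for *Fgfr2*, 3.65 to 4.19 for *Fgfr3* and 0.91 to 1.30 for *Fgfr1*. With the mouse as a replicate block, limma called 4298 genes against 4309 without it, and the paired fit changed no call of the 10 genes. *Fgf9* and *Fgf18* were called in no alternative and changed sign. *Fgf9* ran from -0.14 to 0.49 when single libraries were left out, negative without gland M9232 (-0.14) and without tumor T9232 (-0.02). *Fgf18* ran from -0.46 to 0.79, negative without gland M11035 (-0.46) and without tumor T9232 (-0.21), and was also negative with edgeR (-0.12) and DESeq2 (-0.14). The difference in the log2 ratio ranged from -4.44 to -3.94 for *Fgf10* to *Fgf7* and from 0.50 to 0.996 for *Fgfr2* to *Fgfr1* without single libraries. Over all alternatives, 3774 to 4462 genes were called. Scaling to the upper quartile moved the median of all genes to -0.07. The depth limits *Fgf9* and *Fgf18*, whose values stand on 0 to 23 fragments. The called genes *Fgf1* and *Fgf2* also stand on few fragments in the tumors, 14 to 23 and 9 to 12.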
